A study of Rattus norvegicus with 8 samples.

Results

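Cytochrome P450 and flavin monooxygenase genes were followed in rat lung through 48 h of hypobaric hypoxia. The members are the array probes named Cyp or Fmo with a digit, apart from Cyp1a1, Cyp1a2 and Cyp1b1, that were well above background in either channel on 4 or more of 8 arrays. Of 80 probes for 69 gene names, 46 probes for 39 gene names passed, out of 41012 probes on the array and 28419 that passed the same limit. The choice used brightness only and no ratio. Just outside it lay Cyp2c37, above background on 3 arrays, and just inside it Cyp11b3 and Cyp21a1, each on 4 arrays. Of the 46 members, 37 were matched by accession to a current RefSeq symbol, and several names on the array are older than that: its Cyp2f2 is Cyp2f4, Cyp2a3a is Cyp2a3, Cyp2b13 is Cyp2b21, Cyp3a13 is Cyp3a9 and Cyp2d22 is Cyp2d4.

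Over 7 days rats were pretreated with saline or with cobalt at a dose of 12.5 mg/kg, before exposure to an altitude of 30000 ft for 6, 12, 24 or 48 h. Each of the 8 two-colour arrays held lung RNA of 1 pretreatment and duration in one channel and, in the other, 0 h RNA after the same pretreatment, so that each group held 1 array. Hypoxia RNA carried Cy5 on the 4 saline arrays, which share a slide, and Cy3 on the 4 cobalt arrays, which share another, so pretreatment, slide and dye orientation cannot be told apart. Ages, strain and the number of animals behind each RNA are not given in the sources used here. The p-values rest on how far arrays and durations scatter, which may be technical. They hold no variation of the 0 h RNA, which the arrays of a pretreatment share. The arrays were alike in quality, with 56.5% to 65.7% of green and 62.1% to 71.1% of red spots well above background and all 9 type II cell markers listed for lung measured. Values below are log2 ratios of hypoxia over 0 h, fitted means are given ± SE, and a member is called where limma's test, adjusted by Benjamini-Hochberg over all 28419 probes, gave an adjusted p under 0.05.

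P450 enzymes are haem proteins that use molecular oxygen and electrons from the reductase Por, or from ferredoxin in mitochondria, to oxidize drugs, fatty acids, sterols and vitamins. Flavin monooxygenases (FMOs) carry a flavin in place of the haem and oxidize nitrogen and sulfur in drugs and amines. In lung, the xenobiotic P450s are known from club cells of the airway and from the alveolar epithelium, where they can turn inhaled compounds into toxic products.

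More P450 and FMO probes were called lower than higher under hypoxia, chiefly on the cobalt arrays. In the average of both pretreatments, 20 of the 46 members were called, 4 higher and 16 lower, where 32.3% of all probes were called, 14.9% higher and 17.4% lower. Cyp2c, among the 4 called higher, passed the filter through the hypoxia channel alone. The median member stood at -0.17 and the median of all probes at -0.01. The lowest averages were those of Cyp2e1, Cyp26b1, Cyp2a3a and Fmo1, from -1.12 to -0.88, and the highest was that of Cyp51 at 0.54. Of these, Cyp26b1 and Cyp2a3a were low through the cobalt arrays, with saline means of 0.07 and 0.40. On the cobalt arrays 22 members were called, 2 higher and 20 lower, where 20.5% of all probes were called, 8.57% higher and 12% lower, and the median member stood at -0.33. On the saline arrays 9 members were called, 3 higher and 6 lower, where 40.8% of all probes were called, 20.6% higher and 20.2% lower, and the median member stood at 0.01. The cobalt count moved most with single arrays: it was 11 without the 24 h array, 13 without the 6 h array and 13 without the 48 h array, where 9.21%, 12.4% and 13.5% of all probes were called. With median centring in place of loess, the cobalt calls were 9 higher and 27 lower, where 80% of all probes were called, and the saline calls 16 higher and 2 lower, where 57.9% were.

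**Figure D1:**
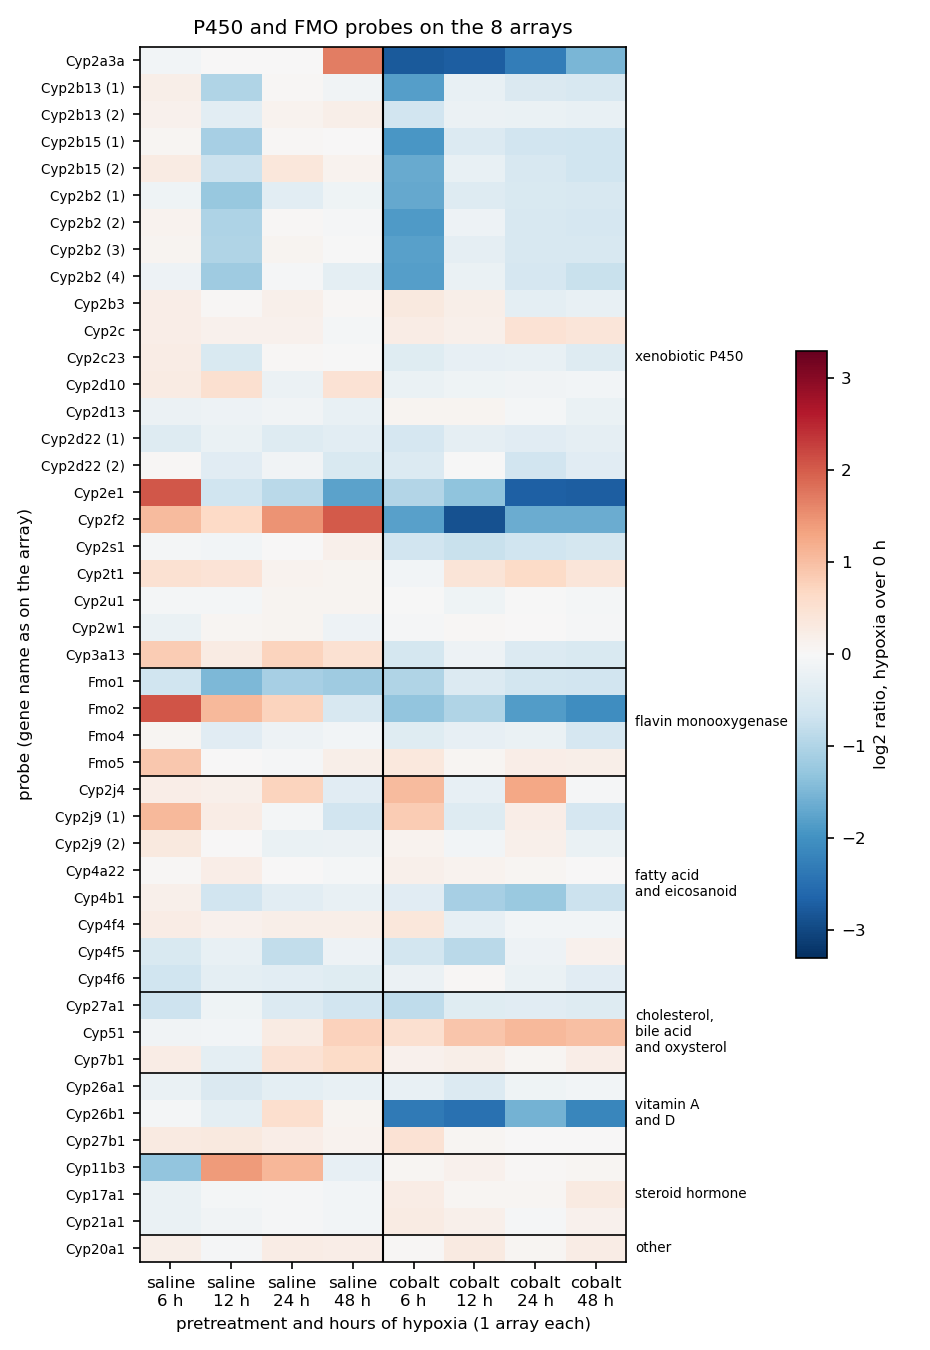
Log2 ratio of hypoxia over 0 h (colour) for the member probes described here (rows, grouped by role, probes of one gene numbered) on the 8 arrays (columns, 1 per pretreatment and duration). Cyp2a3a, Cyp2f2, Cyp26b1, Fmo2 and Cyp2e1 are blue on all 4 cobalt arrays, 7 Cyp2b probes dip on saline 12 h and cobalt 6 h, and Fmo1 is blue on all 8 arrays.

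Of the 46 members, 7 had 1 sign on all 8 arrays, against 12.8% of all probes. The 6 that were lower throughout were Fmo1, 2 probes of Cyp2b2, Cyp27a1, Cyp26a1 and 1 probe of Cyp2d22, and Cyp27b1 was higher throughout. In bulk lung RNA, fewer cells of a type and less RNA per cell cannot be told apart. A span over 1 log2 unit between the 4 saline arrays was seen for 15 of 46 members, against 8.24% of all probes, and between the 4 cobalt arrays for 14 of 46, against 4.4%. In each pretreatment 7 of these were Cyp2b probes that ran together.

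The xenobiotic P450s of the Cyp2 and Cyp3 families were the largest group, with 23 probes. On the cobalt arrays 13 of them were called lower and 1 higher, at a median of -0.42, where 12% of all probes were lower and 8.57% higher; 6 of the 13 were probes of the closely related Cyp2b genes. On the saline arrays 2 were lower and 2 higher, at a median of -0.06, where 20.2% of all probes were lower and 20.6% higher. In the average 8 were lower and 2 higher, where 17.4% of all probes were lower and 14.9% higher.

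Cyp2f2, which in airway club cells activates naphthalene, differed most between the pretreatments. Its ratios were 1.06, 0.66, 1.48 and 2.01 at 6, 12, 24 and 48 h on the saline arrays and -1.80, -2.87, -1.63 and -1.65 on the cobalt arrays. Every saline array lay above 0 and every cobalt array below it. The saline mean was 1.30 ± 0.24 (limma, adjusted p = 0.00218), the cobalt mean -1.99 ± 0.24 (adjusted p = 0.000832), and the cobalt response minus the saline response -3.29 ± 0.33 (limma, adjusted p = 0.000221). That difference ranked 2 from the lowest of all 28419 probes. Its first 30 of 60 bases are shown, at the array's rn3 position (gene models of rn3 were not used here), because the largest difference rests on it.
Cyp2f2, chr1:82282638-82282697: cgtgacaaaggggaaatacccatcttatac

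Cyp2a3a, a P450 of nasal and lung epithelium, was at -0.10, 0.00, 0.00 and 1.68 on the saline arrays from 6 to 48 h and at -2.77, -2.71, -2.28 and -1.51 on the cobalt arrays. Only the 48 h saline array was clearly above 0, and all cobalt arrays were far below it. Its cobalt mean of -2.32 ± 0.29 ranked 1 from the lowest of all probes (limma, adjusted p = 0.00113), and the difference between pretreatments was -2.71 ± 0.41 (adjusted p = 0.00144). Its hypoxia channel was above background on 3 of the 4 cobalt arrays.

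Cyp3a13, of a family that oxidizes steroids and many drugs, also took opposite signs. Its saline ratios were 0.84, 0.26, 0.73 and 0.49, and its cobalt ratios -0.59, -0.16, -0.45 and -0.50, a difference of -1.0 ± 0.15 (limma, adjusted p = 0.00138). Cyp2s1, an epithelial P450, was near 0 on the saline arrays at -0.07, -0.10, 0.01 and 0.17 and lower on every cobalt array at -0.64, -0.73, -0.67 and -0.59. It differed by -0.66 ± 0.10 (limma, adjusted p = 0.00152).

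Between the pretreatments 10 members were called, 7 lower and 3 higher in cobalt minus saline, where 30.5% of all probes were called, 16.5% lower and 13.9% higher. The saline and the cobalt values did not overlap for 9 of 46 members, against 32% of all probes, and 3 of 46 had one sign on saline and the other on cobalt arrays, against 12.4%. These counts are shares at or below those of all probes. The lower differences reached -3.29, and Cyp2f2, Cyp2a3a, Fmo2 and Cyp26b1 held ranks 2, 6, 15 and 26 from the lowest of all 28419. Fmo2 was saturated in the 0 h channel on 2 cobalt arrays and the hypoxia channel of Cyp2a3a was not above background on 1, so those values are limits on these arrays. With median centring the 4 differences were -5.27, -3.54, -4.70 and -4.14, where 78.2% of all probes were called. That setting moved the median ratio of all probes up on every saline array (0.208 to 0.355) and down on every cobalt array (-0.583 to -0.518). The count of 10 was 6 without the cobalt 48 h array, where 24.6% of all probes were called.

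**Figure D2:**
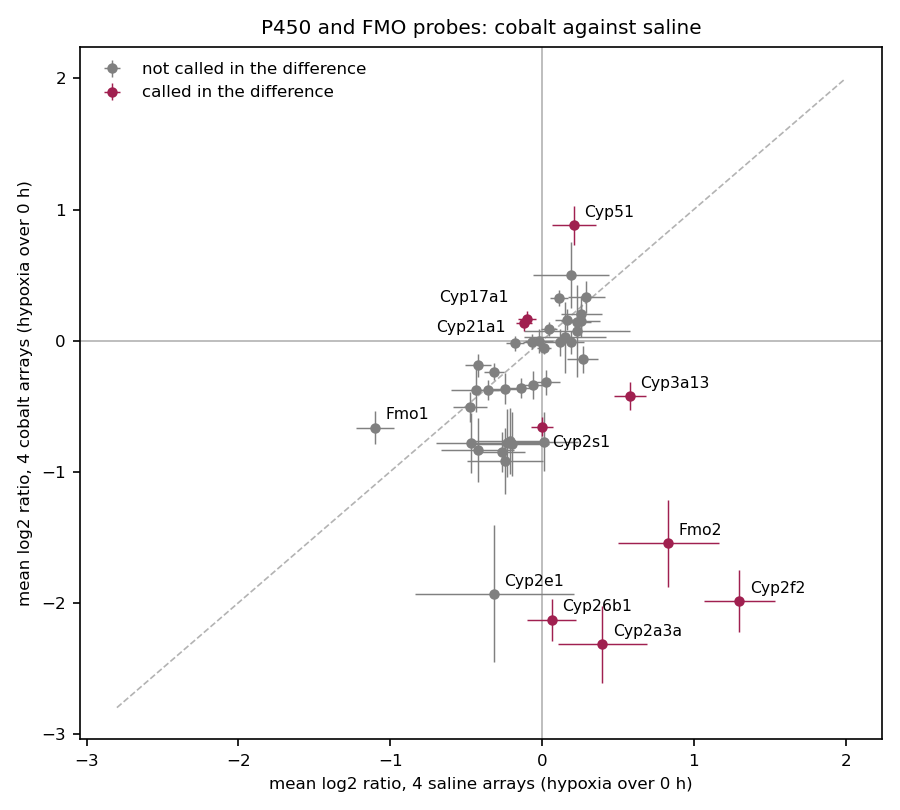
Mean log2 ratio over the 4 cobalt arrays (vertical) against the mean over the 4 saline arrays (horizontal) for the member probes described here, with bars of 1 SE from limma and a dashed line of equality. The members called in the difference (red) lie mostly below the line, Cyp2f2 at 1.30 and -1.99 the farthest, while Fmo1 is lower in both; Cyp51 lies above the line after loess and below it with median centring.

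Channel levels show where those differences lie. After quantile normalization of mean intensity between arrays, Cyp2f2 in the 0 h channel stood at a log2 level of 10.62 ± 0.20 on saline and 13.68 ± 0.11 on cobalt arrays (SD, n = 4 arrays), and in the hypoxia channel at 11.92 ± 0.44 and 11.69 ± 0.50. For Cyp2a3a the 0 h levels were 6.78 ± 0.10 and 9.88 ± 0.07 and the hypoxia levels 7.18 ± 0.87 and 7.56 ± 0.65. The pretreatments were thus far apart at 0 h, by 3.06 and 3.10 log2 units, and within 0.38 of each other under hypoxia. For all 7 members called lower in the difference, the gap between pretreatments was larger at 0 h than under hypoxia, as it was for 44.2% of all probes called lower. The 0 h RNA was in Cy3 on the saline and Cy5 on the cobalt slide, so its dye and slide cannot be told apart from the pretreatment. The arrays of a pretreatment agree closely in the 0 h channel (lowest r between arrays 0.992 for saline and 0.993 for cobalt, across probes, which are not independent replicates), and any peculiarity of that RNA enters all 4 ratios.

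**Figure D3:**
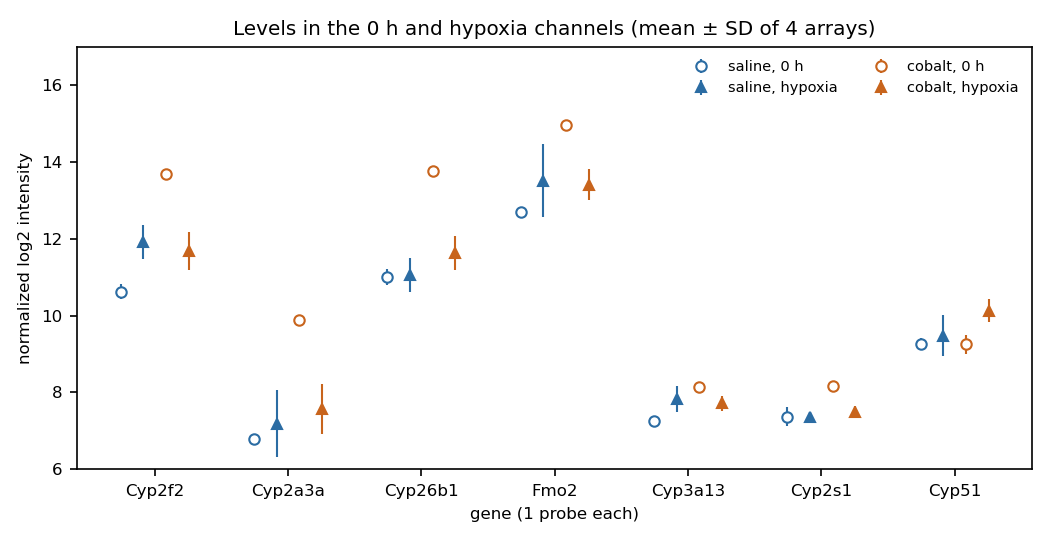
Normalized log2 intensity (vertical) of 7 members in the 0 h channel (open circles) and the hypoxia channel (triangles) on saline (blue) and cobalt (orange) arrays, as mean ± SD of 4 arrays. For Cyp2f2, Cyp2a3a, Cyp26b1 and Fmo2 the cobalt 0 h level stands above the other 3, by 3.06 over the saline 0 h level for Cyp2f2; Cyp51 has like 0 h levels of 9.27 and 9.25.

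Markers of airway cells rose in saline in most cases, and in cobalt the club cell markers were mixed. Of all probes, 20.6% were called higher and 20.2% lower in saline, and 8.57% higher and 12% lower in cobalt. Of 8 club cell markers 5 were measured, the others (Bpifb1, Muc5b and Cckar) being dim or not found on the array. In saline 4 of the 5 were called higher, at a median of 1.11, and in cobalt 1 was called lower, at a median of 0.11, Scgb1a1 at -0.63 and Scgb3a1 at 0.83 among them. Their summed level was 13261 to 16082 in the 0 h channel of the saline arrays, 38985 to 88703 under hypoxia, and on the cobalt arrays 46805 to 48596 at 0 h and 34528 to 45009 under hypoxia. Of 6 measured of 8 ciliated cell markers, 5 were called higher in saline and 2 lower in cobalt. Their summed level was 5767 to 6810 at 0 h and 12447 to 25636 under hypoxia in saline, and 10785 to 12173 and 8713 to 10919 in cobalt. Of the 9 type II cell markers, 8 were called lower in saline and 3 higher in cobalt, Sftpc at -1.79 and 1.42, with summed levels of 330960 to 396149 at 0 h and 183110 to 195989 under hypoxia in saline, and 187161 to 197640 and 221005 to 343246 in cobalt. The part of airway and alveolar cell content in the values of Cyp2f2, Cyp2a3a and the other members was not tested.

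The Cyp2b subfamily, which includes phenobarbital-inducible P450s and forms abundant in rodent lung, was read by 9 probes: 4 for Cyp2b2, 2 for Cyp2b15, 2 for Cyp2b13 and 1 for Cyp2b3. Of the 2 named Cyp2b15 on the array, the dimmer was matched by accession to Cyp2b12. All 9 probes lie on chromosome 1 of rn3 in a cluster of close paralogs, so each value may hold signal of a neighbour. Between any of the 36 pairs of probes the longest shared run was 13 bases, though a Cyp2b13 and a Cyp2b15 probe matched at 39 of 44 overlapping bases. The first 30 of the 60 bases of the brightest probe of each of 3 genes are shown as the array lists them; probes from different stretches of related transcripts look unlike whether or not they also read a neighbour.
Cyp2b2, chr1:81437386-81437445: ctcctaatagcccacgtccccacttatcag
Cyp2b15, chr1:81363994-81364053: tcacagcggctaccaacccttgatgaccgc
Cyp2b13, chr1:81659612-81659671: gtcttggtgaaagcattgcccgcaatgaat

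These probes dipped on 2 arrays. The brightest, of Cyp2b2, was at -0.17, -1.17, -0.04 and -0.31 on the saline arrays and -1.81, -0.22, -0.55 and -0.74 on the cobalt arrays. The low arrays were saline 12 h and cobalt 6 h, and the 2 series overlapped. Its average was -0.63 ± 0.17 (limma, adjusted p = 0.02). The 7 Cyp2b probes with a mean log2 intensity over 8, a line drawn after their values were seen, ran from -1.25 to -0.71 on saline 12 h, median -1.03, and from -1.92 to -1.65 on cobalt 6 h, median -1.81. Their medians on the other saline arrays were 0.10, 0.05 and -0.05, and on the other cobalt arrays -0.25, -0.52 and -0.56. Any 2 of these 7 probes correlated at 0.95 to 0.999 over the 8 arrays, each centred on its pretreatment; the arrays share RNA sources in part, and the genes share sequence. The 2 dim probes, of Cyp2b3 and Cyp2b13, were at 0.05 and -0.34 on saline 12 h and at 0.32 and -0.62 on cobalt 6 h.

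Of these 7 probes 3 were called lower in the average and 5 on the cobalt arrays, where 17.4% and 12% of all probes were. Without the cobalt 6 h array these counts were 2 and 0, with a median average of -0.33. Without the saline 12 h array they were 2 and 7. Cyp2b15 lost its average call (-0.58 ± 0.18, limma, adjusted p = 0.0318) without either array.

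**Figure D4:**
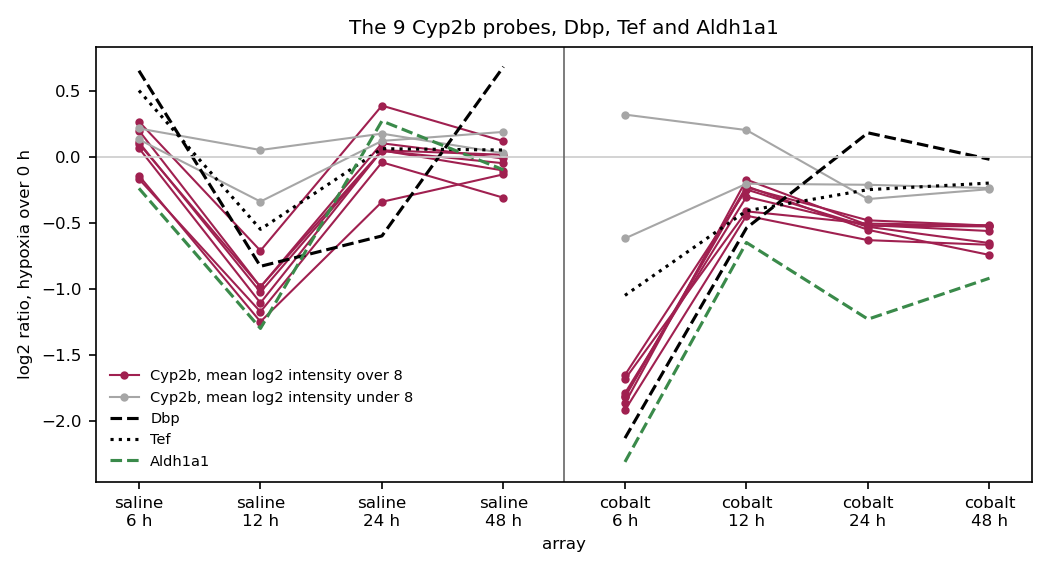
Log2 ratio of hypoxia over 0 h (vertical) on the 8 arrays (horizontal) for the 9 Cyp2b probes (7 with mean log2 intensity over 8 in red, 2 below in grey) and for Dbp, Tef and Aldh1a1. The red lines fall to a median of -1.03 on saline 12 h and -1.81 on cobalt 6 h, where Dbp, Tef and Aldh1a1 are also low.

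Among named genes whose centred ratios had an SD over 0.4, those most like the brightest Cyp2b2 probe over the 8 arrays, outside the subfamily, were the retinal dehydrogenase Aldh1a1 (r = 0.96), the retinol and alcohol dehydrogenase Adh7 (r = 0.93), the cortisone reductase Hsd11b1 and the type I cell chloride channel Clic5 (both 0.86). Aldh1a1 was at -0.24, -1.30, 0.27 and -0.10 on the saline arrays and -2.31, -0.65, -1.23 and -0.92 on the cobalt arrays. Type I cell markers shared the saline 12 h dip by their median, and on cobalt 6 h they were mixed. There Pdpn, Aqp5 and Clic5 were at -1.22, -1.08 and -0.67, each its lowest cobalt value. Ager was at -0.46 and Hopx at 0.32 on that array, neither its lowest. The median of the 5 measured of 6 type I markers was -1.89 on saline 12 h and between -0.52 and -0.07 on the other saline arrays. On the cobalt arrays it was -0.67, -0.28, -0.70 and -0.20 from 6 to 48 h. Their summed hypoxia levels were 54479 to 83575 in saline and 66987 to 87338 in cobalt. The part of type I cell content in the dip was not tested.

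Dbp and Tef, clock-driven factors that bind the D-box and act on Cyp2 genes in liver, were also lowest on saline 12 h and cobalt 6 h. Dbp was at 0.65, -0.83, -0.60 and 0.68 on the saline and -2.13, -0.54, 0.18 and -0.02 on the cobalt arrays. Tef was at 0.50, -0.55, 0.06 and 0.05, and at -1.05, -0.41, -0.25 and -0.20. Over the 8 centred arrays the mean of the 7 Cyp2b probes correlated with Dbp at r = 0.79 and with Tef at r = 0.89, a description over arrays that share slides and 0 h RNA. The hour of day at which animals were killed is not given in the sources used here.

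The D-box, TTATGNAA on either strand, was found within 250 bases before the start of 4 of 33 matched member promoters (12.1%), against 3.28% of all 33469 promoters in RefSeq's table for GRCr8. These were Cyp2a3, Cyp2b2, Cyp2b21 and Cyp2b3, of which 3 are close Cyp2b paralogs and so not independent. Cyp2b12 and Cyp2b15 had no match in the window. On saline 12 h and cobalt 6 h, brightest probes with a match were at -1.17 and -1.81 (Cyp2b2) and -0.985 and -1.82 (Cyp2b21). Cyp2b3, with a match, was at 0.05 and 0.32, and Cyp2a3 at 0.00 and -2.77. Without a match, Cyp2b15 was at -1.11 and -1.92 and Cyp2b12 at -0.71 and -1.65. A link of the D-box to the dip was not tested. The 30 bases around each match are shown in the direction of the gene, with the match in capitals. Cyp2b2 holds 2 matches, 224 and 87 bases before the start, and those of Cyp2b21, Cyp2b3 and Cyp2a3 begin 77, 60 and 94 bases before it.
Cyp2b2, chr1:90722046-90722075, plus strand: tgcacacccatTTACATAAaacaagaggcc
Cyp2b2, chr1:90722183-90722212, plus strand: aacatctgaagTTGCATAActgagtgtagg
Cyp2b21, chr1:91042811-91042840, minus strand: aatagctgaagTTGCATAAgtgaatggtca
Cyp2b3, chr1:90780421-90780450, plus strand: gacagctggagTTGCATAAccttgtgaaga
Cyp2a3, chr1:91299479-91299508, plus strand: aaattagacagTTGCATAAtcaagaccaaa

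A match is a description of the letters and not of a bound site. The whole window of Cyp2b2 is given for context, with D-box matches and a GCGTG core in capitals.
Cyp2b2, chr1:90722031-90722280, plus strand: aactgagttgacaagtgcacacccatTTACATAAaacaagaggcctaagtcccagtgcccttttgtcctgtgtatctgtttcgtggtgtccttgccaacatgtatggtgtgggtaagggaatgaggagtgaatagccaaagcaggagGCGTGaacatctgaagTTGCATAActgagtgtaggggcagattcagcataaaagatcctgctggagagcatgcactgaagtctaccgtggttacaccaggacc
The cores ACGTG and GCGTG, searched on both strands as letters of hypoxia and dioxin response elements, were in 4 (12.1%) and 11 (33.3%) of the 33 member promoters, against 16.6% and 25.9% of all promoters. No member window held the full glucocorticoid element or the sterol element as searched, which were in 0.373% and 0.23% of all.

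Cyp2e1, the ethanol- and fasting-inducible P450, was lower at each later duration. On the saline arrays it was at 2.06, -0.67, -0.88 and -1.77 from 6 to 48 h, and on the cobalt arrays at -0.97, -1.34, -2.68 and -2.73. Only the saline 6 h array was above 0, and the 2 series overlapped. The probe is spotted 10 times on each array, and the SD over its spots was 0.03 to 0.14, with 1 outlier spot dropped on cobalt 12 h and the spread between arrays far larger. The average was -1.12 ± 0.37 (limma, adjusted p = 0.0419), the cobalt mean -1.93 ± 0.52 (adjusted p = 0.0281) and the saline mean -0.32 ± 0.52 (adjusted p = 0.659). The average passed in 2 of the 8 fits that left out 1 array: it was lost without any one of saline 12, 24 and 48 h or cobalt 12, 24 and 48 h (adjusted p up to 0.106). The mean of 24 and 48 h minus that of 6 and 12 h was -1.78, rank 2 from the lowest of all probes, and was not called (unadjusted p = 0.0093).

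Of the other xenobiotic members, Cyp2d22 was lower on every array by its brightest probe, at -0.42, -0.22, -0.44 and -0.35 in saline and -0.55, -0.30, -0.37 and -0.30 in cobalt (average -0.37 ± 0.05, limma, adjusted p = 0.00119), and its other probe averaged -0.30. Cyp2t1, a P450 of unknown substrate, was called higher at 0.31 ± 0.09, a call lost without saline 12 h, cobalt 12 h or cobalt 24 h (adjusted p up to 0.0654). Cyp2c, called higher at 0.22 ± 0.04, passed the filter through its hypoxia channel alone. That channel was well above background on 4 saline and 3 cobalt arrays, and the 0 h channel on none. Only bounds hold for Cyp2c, at least 1.25-fold in cobalt (limma, adjusted p = 0.00663) and at least 1.08-fold in saline, which was not called (adjusted p = 0.168). These are the mean hypoxia level set against the higher of the dim level and the lowest signal above background. They equal the fitted folds and are open to dye bias. Cyp2t1 and Cyp2c were chosen for naming after their values were seen.

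Among the FMOs, 2 were called lower and none higher in the average, where 17.4% and 14.9% of all probes were. Fmo1 and Fmo2 lie close together on chromosome 13 of rn3, where the array lists their probes as follows, first 30 of 60 bases.
Fmo1, chr13:78518396-78518455: actcgaaccgtacaagaaaccccatctacc
Fmo2, chr13:78560590-78560649: gttatcattctactatctcctccaattcat

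Fmo1 was lower on every array: -0.65, -1.47, -1.10 and -1.18 in saline and -0.98, -0.46, -0.59 and -0.62 in cobalt. The 2 series overlapped, saline 12 h being the lowest and cobalt 12 h the nearest to 0. The average was -0.88 ± 0.09 (limma, adjusted p = 0.000203), and it stayed between -0.96 and -0.82 whichever array was left out.

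Fmo2 was at 2.07, 1.06, 0.74 and -0.54 on the saline arrays and -1.30, -0.99, -1.83 and -2.06 on the cobalt arrays. The saline values were lower at every step, and each was above every cobalt value. In cobalt minus saline, Fmo2 was at -2.38 ± 0.47 (limma, adjusted p = 0.00491). It was saturated in the 0 h channel on cobalt 6 h and 24 h, where the 0 h signal is only a lower limit. Its cobalt mean was -1.55 ± 0.33 (limma, adjusted p = 0.0111), and its average of -0.36 ± 0.23 was not called (adjusted p = 0.268).

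**Figure D5:**
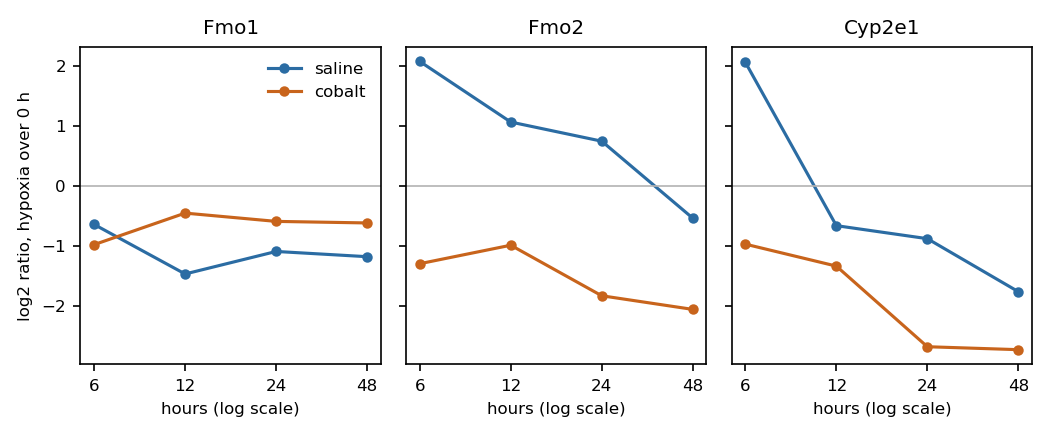
Log2 ratio of hypoxia over 0 h (vertical) against hours of hypoxia (horizontal, log scale) for Fmo1, Fmo2 and Cyp2e1 on saline (blue) and cobalt (orange) arrays, 1 array per point. Fmo1 stays below 0 at every point, whereas Fmo2 runs from 2.07 at 6 h to -0.54 at 48 h in saline and Cyp2e1 from 2.06 to -1.77.

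In the 0 h channel Fmo2 stood at a log2 level of 12.69 ± 0.12 in saline and 14.96 ± 0.08 in cobalt, and in the hypoxia channel at 13.52 ± 0.96 and 13.41 ± 0.41 (SD, n = 4 arrays). As with Cyp2f2, the pretreatments lay apart at 0 h, by at least 2.27 given the saturation, and close together under hypoxia. Fmo1, by contrast, had a 0 h level of 12.21 in both.

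Fmo4 was called lower at -0.25 ± 0.06 (limma, adjusted p = 0.00852), with saline ratios of 0.08, -0.37, -0.17 and -0.09 and cobalt ratios of -0.39, -0.28, -0.23 and -0.55. Fmo5 was at 0.88 on saline 6 h and between -0.05 and 0.35 elsewhere, an average of 0.23 ± 0.10 that was not called (limma, adjusted p = 0.0933).

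Fmo2 and Cyp2e1 ran together over the 8 centred arrays, at r = 0.91. Cyp2e1 was most like the clock repressor Cry1 and Centa2 (both r = 0.97), followed by the transcription factor Klf15 and Sned1 (both r = 0.95). Klf15 was at 2.27, 0.51, 0.17 and -0.45 in saline and at 0.48, 0.10, 0.07 and -0.42 in cobalt, highest on saline 6 h as Cyp2e1 was. The electron donor Por was at 1.36 on saline 6 h and between -0.22 and 0.36 on the other arrays. Named genes most like Fmo2 were the small leucine-rich proteoglycan Omd (r = 0.96), Crim1 and the hyaluronidase Hyal2 (both r = 0.94). Fmo1 was most like the annexin Anxa8 (r = 0.97), followed by Igfbp6 and Clic3 (both r = 0.92) and the clock gene Per2 (r = 0.91). These likenesses are descriptions over 8 arrays that share slides and 0 h RNA.

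Change with time was set out as 24 and 48 h minus 6 and 12 h, in which the 0 h RNA, dye and slide cancel. Limma called 0 of the 46 members and 0% of all probes. At an unadjusted p under 0.05 there were 8 of the 46 members, against 13.2% of all probes, Cyp2e1 at -1.78 and Fmo2 at -1.13 among them. A lower value at every step from 6 to 48 h was seen for 6 of 46 members in saline (5.64% of all probes), 3 in cobalt (11.5%) and 2 in both (1.26%), Cyp2e1 among them.

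The fatty acid and eicosanoid P450s, Cyp4 and Cyp2j, had 8 probes. In the average 3 were called lower and none higher, where 17.4% and 14.9% of all probes were. Cyp4b1, a lung-rich enzyme that activates the pulmonary toxin ipomeanol, was at 0.17, -0.62, -0.35 and -0.25 in saline and -0.37, -1.10, -1.22 and -0.71 in cobalt, all but saline 6 h below 0 (average -0.56 ± 0.11, limma, adjusted p = 0.00426). Cyp4f6, which like Cyp4f5 hydroxylates leukotrienes, averaged -0.31 ± 0.06 (limma, adjusted p = 0.00488), below 0 on all arrays but cobalt 12 h at 0.03. Cyp4f5 averaged -0.41 ± 0.12 (adjusted p = 0.0231), a call lost without saline 24 h, cobalt 6 h or cobalt 12 h (adjusted p up to 0.0614). Cyp2j4, an arachidonic acid epoxygenase, was uneven, at 1.04 and 1.26 on cobalt 6 h and 24 h but -0.26 and -0.03 on cobalt 12 h and 48 h, and was not called (0.35 ± 0.18, adjusted p = 0.162). Cyp2j9 averaged 0.09 by its brighter and -0.01 by its dimmer probe, Cyp4f4 0.09 and Cyp4a22 0.07, none of them called.

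Of the 3 sterol P450s, Cyp51 and Cyp27a1 went opposite ways. Cyp51, the lanosterol demethylase of cholesterol synthesis, was at -0.10, -0.09, 0.27 and 0.77 in saline and 0.53, 0.92, 1.08 and 0.99 in cobalt, lowest on the 2 early saline arrays (average 0.54 ± 0.10, limma, adjusted p = 0.00378). Its cobalt minus saline difference was 0.67 ± 0.21 (adjusted p = 0.0337) after loess and -0.78 with median centring, and the call was lost without any one of the 3 saline arrays to 24 h or the 3 cobalt arrays from 12 h (adjusted p up to 0.0913). Of 14 other sterol synthesis genes measured, 8 were called higher in the average, where 14.9% of all probes were, and 1, Srebf2, lower, with a median of 0.34. On the cobalt arrays 6 were called higher and on the saline arrays 1, where 8.57% and 20.6% of all probes were. The averages were led by Idi1 at 0.98 ± 0.15, followed by Sqle at 0.74 ± 0.10. Cyp27a1, the mitochondrial hydroxylase that makes oxysterols and bile acids, was lower on every array, at -0.68, -0.15, -0.45 and -0.63 in saline and -0.84, -0.39, -0.37 and -0.42 in cobalt (average -0.49 ± 0.08, limma, adjusted p = 0.00175). Cyp7b1, which hydroxylates oxysterols, averaged 0.20 ± 0.09 and was not called (adjusted p = 0.109).

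The vitamin A and D P450s were all 3 called in the average, 2 lower and 1 higher, where 17.4% and 14.9% of all probes were. Cyp26b1, which clears retinoic acid, was at -0.05, -0.33, 0.55 and 0.09 in saline and -2.34, -2.46, -1.56 and -2.15 in cobalt, low on every cobalt array and around 0 in saline. The average was -1.03 ± 0.11 (limma, adjusted p = 0.000286), made up of a saline mean of 0.07 ± 0.16 and a far lower cobalt mean. The cobalt mean, -2.13 ± 0.16, ranked 2 from the lowest of all probes (limma, adjusted p = 8.68e-05), next to Cyp2a3a. Its 0 h level in cobalt was 13.76 ± 0.09, which was 2.76 above that in saline, and its hypoxia levels were 11.06 ± 0.44 in saline and 11.63 ± 0.44 in cobalt (SD, n = 4 arrays). The related Cyp26a1 was dimmer and lower on every array, from -0.49 to -0.21 in saline (average -0.28 ± 0.05, limma, adjusted p = 0.00236). Its hypoxia channel was above background on 1 of the 4 cobalt arrays, so its cobalt ratios are poorly measured, and its average was -1.20 with the software's log ratio. Cyp27b1, which makes active vitamin D, was higher on every array, from 0.01 to 0.47 (0.19 ± 0.06, adjusted p = 0.0422), but passed in only 2 of the 8 fits without 1 array (adjusted p up to 0.087). The enzymes before and after it, Cyp2r1 and Cyp24a1, were dim.

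Steroid hormone P450s were faint, apart from Cyp11b3 on the saline arrays. In the average limma called 0 of 3, where 32.3% of all probes were called, and 0 of them had an unadjusted p under 0.05. Cyp17a1 was below 0 on all saline arrays (-0.23 to -0.03) and above 0 on all cobalt arrays (0.05 to 0.30), a difference of 0.27 ± 0.08 (limma, adjusted p = 0.0356), a call lost in 5 of the 8 fits without 1 array (adjusted p up to 0.0929). With the software's log ratio the difference was 0.54 and was not called (limma, adjusted p = 0.0934). A difference of this size between dim signals on 2 slides of opposite dyes cannot be told apart from dye. Cyp21a1, counted among the 3 called higher in the difference, had neither channel above background on the cobalt arrays, so no difference was measured for it. Cyp11b3 swung from -1.29 to 1.40 between the saline arrays, where its mean log2 level was 8.75 under hypoxia and 8.52 at 0 h. On the cobalt arrays it was not above background in either channel, at 6.33 and 6.26. Cyp20a1, a P450 of no known substrate, averaged 0.16 ± 0.06 and was not called.

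The 34 named probes left out as dim held most liver-type and endocrine P450s. Of these, 14 were above background on no array, 12 on 1, 7 on 2 and 1 on 3. Among them were Cyp7a1 and Cyp8b1 of bile acid synthesis, Cyp11a1 and Cyp19a1 of steroid synthesis, and the liver genes Cyp2c7, Cyp2c13, Cyp3a11 and Cyp4a12. On the cobalt 6 h array 5 of the 34, Cyp2c13, Cyp4f2, Cyp3a11, Cyp2c70 and Cyp2c37, were above background in the hypoxia channel and not in the 0 h channel, with ratios of 0.79, 0.60, 0.58, 0.48 and 0.35. Detection alone was not particular to this array: on saline 12 h 12 of the 34 were above background in the hypoxia channel and 2 in the 0 h channel, at ratios up to 0.16, and on saline 6 h 4 and 0. On the other 7 arrays the highest ratio of any of the 34 was 0.51. Albumin (Alb) was at 5.50 on that array, between 0.01 and 0.97 elsewhere, and fibrinogen beta (Fgb) at 2.49. The median of 6 measured of 8 hepatocyte markers was 1.04 there and 0.03 to 0.27 on the others, and their summed hypoxia level ran from 570 to 3500 on cobalt and 538 to 633 on saline arrays. The part of hepatocyte RNA on this array, which also holds the low point of Cyp2b, was not tested.

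Partners of the P450s are given beside the median of all probes, -0.01 in the average, where 14.9% of all probes were called higher and 17.4% lower. Of 11 electron donors, 2 were called higher and none lower in the average, at a median of -0.02: the ferredoxin reductase Fdxr at 0.35 ± 0.08 (0.92 in saline and -0.23 in cobalt) and the cytochrome Cyb5b at 0.23 ± 0.08. Of 9 genes of haem synthesis limma called 0 in the average, at a median of -0.02, with 0 at an unadjusted p under 0.05. The rate-limiting Alas1 averaged 0.03, with 0.37 in saline and -0.31 in cobalt. Of 20 nuclear receptors and liver-enriched factors, 5 were lower and 3 higher (median -0.15), with Pparg at 0.41 ± 0.07, the glucocorticoid receptor Nr3c1 at -0.46 ± 0.07 and the retinoic acid receptor Rara at -0.39 ± 0.05 (-1.01 in saline and 0.23 in cobalt). Of 21 hydrolases and conjugating enzymes, 4 were lower and 3 higher (median 0.01), among them Gstp1 at 0.39 ± 0.06 and the carboxylesterase Ces1 at -0.48 ± 0.08. On the cobalt arrays 6 of these 21 were lower and 1 higher, where 12% of all probes were lower and 8.57% higher. In cobalt minus saline 9 of the 21 were lower and none higher, where 16.5% of all probes were lower and 13.9% higher.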

How the data were processed

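Two-colour Agilent arrays compared hypoxic with 0 h rat lung RNA. Per the file headers, the deposited intensity values came from Feature Extraction 9.5.1.1 with probe positions in rn3, and the authors' log10 ratio column was made by that software. The deposited series matrix holds log2 values that matched those ratios after rounding, with the sign turned for cobalt arrays. RNA extraction batches are not given in the sources used here.

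Mean and background intensities were corrected with normexp (offset 50), normalized by loess within each array with control spots at weight 0, and turned to hypoxia over 0 h (limma 3.58.1, R 4.3.3). Outlier spots were dropped and spots of a probe averaged. Probes well above background in either channel on 4 or more arrays were fitted with lmFit and eBayes with a variance trend, by pretreatment, and p-values were adjusted by Benjamini-Hochberg over 28419 probes at 0.05. Channel levels were quantile-normalized between arrays on mean intensity and are open to dye bias. The number of arrays limits the precision.

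Named genes were called members with 1 sign on all 8 arrays (up to 10 each way), up to 8 called differences whose saline and cobalt values did not overlap, the 3 lowest p-values in late minus early, and the P450 families and FMOs best known in lung, sterol, vitamin and steroid metabolism whatever their values, by brightest probe. Cyp2t1, Cyp2c, Cyp11b3, Cyp20a1 and the dim probes were named after their values were seen. The members and lists were chosen with earlier results of these data known. The fit was tested on simulated data. Alternatives were the software's log ratio, the series matrix, background, normalization, filters, 1 probe per gene, outliers, variance model, a duration term, and each array left out in turn. RefSeq promoters of GRCr8 were matched by symbol for 32 of 39 gene names, giving 33 promoters. An item is counted among the members but not reported here by name.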

Additional observations from a re-analysis of the deposited data

Results flagged for a closer look

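The log2 ratio of hypoxia over 0 h differed between the cobalt and the saline arrays for the following members by limma's test of the difference itself, after Benjamini-Hochberg adjustment over all probes. Lower in cobalt minus saline were Cyp2f2 at -3.29, Cyp2a3a at -2.71, Fmo2 at -2.38, Cyp26b1 at -2.19, Cyp3a13 at -1.0 and Cyp2s1 at -0.66. Higher after loess were Cyp51 at 0.67, which was at -0.78 with median centring, and Cyp17a1 at 0.27. With median centring, where 78.2% of all probes were called, the lower ones were at -5.27, -3.54, -4.70, -4.14, -1.77 and -1.34 in the same order. With the software's log ratio they were at -3.27, -4.06, -2.33, -2.27, -1.64 and -1.06. By that ratio Cyp51 was at 0.75, and Cyp17a1 at 0.54 was not called (limma, adjusted p = 0.0934). Leaving out 1 array lost the call of Cyp51 in 6 of 8 fits and that of Cyp17a1 in 5 of 8. Fmo2 was saturated in the 0 h channel on cobalt 6 h and 24 h. The hypoxia channel of Cyp2a3a was above background on 3 of the 4 cobalt arrays. For each of the lower ones the gap between pretreatments was larger at 0 h than under hypoxia, 3.06 against -0.23 for Cyp2f2. The arrays of a pretreatment share their 0 h RNA, so these p-values hold no variation of that RNA. Pretreatment, slide, dye orientation and the shared 0 h RNA cannot be told apart in any of these.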

How the results depend on the processing

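Each group holds 1 array, so saline and cobalt arrays could be paired only by duration. A term for each duration added to the model sets arrays of one duration side by side. With it limma called 22 members in the average and 10 in the difference, where 32.7% and 30.7% of all probes were called. Median centring, which moved the median ratio by 0.208 to 0.355 on saline and by -0.583 to -0.518 on cobalt arrays, gave 18 members called in saline, 36 in cobalt and 43 in the difference, where 57.9%, 80% and 78.2% of all probes were called. Under it the difference between cobalt and saline changed sign for Fmo1 (-1.55), Cyp51 (-0.78), Cyp2j4 (-1.36), Cyp4f4 (0.29), Cyp4f5 (-1.21), Cyp4f6 (-1.69) and Cyp2t1 (-0.84). Leaving out 1 array gave 16 to 20 members called in the average, 8 to 12 in saline, 11 to 24 in cobalt and 6 to 10 in the difference. The other alternatives kept each of these counts within 1.5 times, and 24 and 48 h minus 6 and 12 h gave 0 in all that were fitted. The cause of these changes was not tested. Probes near background, such as Cyp2c, Cyp21a1 and, on the cobalt arrays only, Cyp11b3, have no measured level in at least 1 channel.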
